A study of Mus musculus with 8 samples.

Results

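Genes that serve the clearance of dying cells or signal as TREM receptors were followed in 8 libraries of mouse brain cells: the bridging ligands Gas6 and Pros1, the receptors Mertk, Axl and Stab1, the receptors Trem2 and Trem1, and their adaptor Tyrobp. The genes were chosen by name, and all 8 were found among the 20340 genes of the count tables. The cells came from the brains of male C57BL/6J mice aged 8 to 9 weeks after a 60 min occlusion of the middle cerebral artery with a suture, followed by reperfusion, a model of ischaemic stroke. The study asks how Prdx1, which encodes the antioxidant enzyme peroxiredoxin 1, bears on this injury. After enzymatic dissociation and removal of myelin, viable cells of each hemisphere were sorted for 10x Genomics 3′ libraries. The 8 libraries were the ipsilateral (occluded side) hemisphere of Prdx1-/- and of WT (Prdx1+/+) mice at 48 h and at 24 h, and the contralateral hemisphere of Prdx1-/- and of WT mice at 48 h and at 24 h. There was 1 library per combination, all from operated mice, and the labels do not give the number of mice behind a library.

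Dying cells expose phosphatidylserine on their surface, and GAS6 and protein S (PROS1) bind this lipid and bridge it to the TAM receptor kinases, among them MERTK and AXL, on the cell that engulfs. Stabilin-1 (STAB1) is a scavenger receptor that can bind phosphatidylserine itself. TREM2, a receptor of microglia and other macrophages, senses lipids and lipoproteins, TREM1 amplifies inflammatory signals in neutrophils and monocytes, and both signal through the adaptor TYROBP, also known as DAP12.

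The stretches of 250 bases before the annotated starts of Trem2, Trem1 and Mertk are shown because Trem2 and Mertk differed between hemispheres in one direction and Trem1 in the other. They are RefSeq sequences on the plus strand of GRCm38.p6, at chr17:48346151-48346400, chr17:48232489-48232738 and chr2:128698665-128698914. Capitals mark GAGGAA (the core bound by PU.1, a transcription factor of myeloid cells, here also as its reverse complement) and TGANTCA (the AP-1 motif), searched on both strands.
Trem2: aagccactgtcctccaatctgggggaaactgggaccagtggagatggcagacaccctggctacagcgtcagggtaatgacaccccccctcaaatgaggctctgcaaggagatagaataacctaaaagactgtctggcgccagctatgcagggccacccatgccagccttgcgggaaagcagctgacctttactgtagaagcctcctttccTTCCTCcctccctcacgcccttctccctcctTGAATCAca
Trem1: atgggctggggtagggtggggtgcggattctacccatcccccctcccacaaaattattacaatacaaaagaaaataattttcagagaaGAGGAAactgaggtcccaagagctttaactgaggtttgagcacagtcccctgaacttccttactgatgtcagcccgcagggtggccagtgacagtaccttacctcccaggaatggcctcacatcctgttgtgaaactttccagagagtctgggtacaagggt
Mertk: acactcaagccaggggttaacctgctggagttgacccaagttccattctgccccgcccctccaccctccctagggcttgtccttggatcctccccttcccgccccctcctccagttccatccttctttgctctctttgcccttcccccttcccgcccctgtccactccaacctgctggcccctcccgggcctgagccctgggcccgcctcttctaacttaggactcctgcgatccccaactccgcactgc
The Trem2 window held 1 GAGGAA match, 40 bases before the start, and 1 TGANTCA match, 9 bases before it. The Trem1 window held 1 GAGGAA match, 162 bases before the start, and the Mertk window held no match to either motif. GAGGAA occurred in 23.25% and TGANTCA in 6.75% of 32851 RefSeq promoter windows of the same length, and the interferon response element, present in 2.98% of them, had no match in the 7 windows available for these genes. No window was available for Tyrobp. In GENCODE M21 on GRCm38, Trem2 (17:48346401-48354147) and Trem1 (17:48232768-48246924) lie on the same strand of chromosome 17.

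The libraries held 39433266 to 70111421 UMIs, with a median of 7201 to 13139 UMIs per cell, in 4189 to 5759 cells each, and 38025 of 39945 cells were used. Pairs of libraries shared 3 to 17 cell barcodes, and no cell was identical between libraries. Prdx1 stood at 7.78 and 6.21 counts per 1000000 UMIs (CPM) in summed microglia-like cells of the 48 h ipsilateral and contralateral libraries labelled Prdx1-/-, against 733 and 339 CPM in those labelled WT. At 24 h it stood at 640.3 and 88.9 CPM in the libraries labelled Prdx1-/-, against 587 and 263 CPM in those labelled WT, so both 24 h libraries labelled Prdx1-/- held the transcript, and every genotype difference below is between libraries as labelled. Cells were clustered without the 8 genes and Prdx1, and clusters were named from marker lists as microglia-like (21157 cells), monocyte/macrophage-like (6596), neutrophil-like (5802), dendritic-like (1317), B-like (771), T-like (606), border macrophage-like (322) and smaller classes. For levels and tests, the counts of all cells of a class in a library were added up. A class was tested where every library held at least 20 of its cells, which 5 classes met. The 8 libraries were fitted together with hemisphere, genotype label and time as terms, so a p-value reflects how far these single libraries scatter, and part of that scatter may be technical.

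Each gene had its own distribution over the classes, and these levels are a description with no test. Gas6 averaged 173 ± 27.6 CPM in microglia-like cells (SD, n = 8 libraries) and 160.3 ± 45.7 CPM in border macrophage-like cells (n = 6), 2 neighbours within their spread. It was higher, at 361 ± 97.4 CPM (n = 3), in choroid/ependymal-like cells, and 5.91 ± 3.71 CPM in monocyte/macrophage-like cells. Pros1 was highest in microglia-like cells (165 ± 33.5 CPM), with 54.7 ± 13.1 CPM in border macrophage-like and 17.2 ± 2.65 CPM in monocyte/macrophage-like cells. Both ligands of the TAM receptors were thus carried mainly by resident classes.

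Among the receptors, Mertk averaged 302 ± 74.5 CPM in microglia-like cells, above border macrophage-like cells (123 ± 33.4 CPM) and monocyte/macrophage-like cells (40.7 ± 12.9 CPM). Axl had another order: border macrophage-like cells stood at 196 ± 55.9 CPM, dendritic-like cells at 48.5 ± 31.7 CPM, monocyte/macrophage-like cells at 20.7 ± 9.14 CPM and microglia-like cells at 10.4 ± 3.35 CPM. Border macrophages lie along vessels and meninges. The border macrophage-like level of Axl exceeded that of dendritic-like cells in 6 of 6 libraries, while the dendritic-like and monocyte/macrophage-like means overlapped within their spread. Stab1 was also highest in border macrophage-like cells, at 371 ± 103 CPM, then in microglia-like cells (206 ± 44.5 CPM). Endothelial-like (124 ± 60.7 CPM, n = 4) and monocyte/macrophage-like cells (118 ± 36.5 CPM) came next. The cluster behind the border macrophage-like class lost 42.1% of its cells as doublets. With doublets kept its Axl mean was 96.3 CPM and its Stab1 mean 245 CPM. When classed by marker score, 67 of its 322 cells were border macrophage, 74 microglia and 15 monocyte/macrophage, and 157 were unassigned. The part of these other cells in the levels of the class was not tested.

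Trem2 was highest in microglia-like and Trem1 in neutrophil-like cells, and monocyte/macrophage-like cells held both. Trem2 averaged 1486 ± 449 CPM in microglia-like cells, 722 ± 97.7 CPM in border macrophage-like cells and 307 ± 107 CPM in monocyte/macrophage-like cells. Trem1 averaged 972 ± 273 CPM in neutrophil-like cells, 137 ± 50.9 CPM in monocyte/macrophage-like cells and 85.0 ± 27.8 CPM in dendritic-like cells. In microglia-like cells Trem1 stood at 10.2 ± 8.25 CPM, a level neighbouring that of T-like (14.7 ± 16.3 CPM) and NK-like cells (6.84 ± 1.59 CPM). Tyrobp, which serves both receptors, spanned all myeloid classes: 4683 ± 833 CPM in neutrophil-like, 3296 ± 234 CPM in monocyte/macrophage-like, 2480 ± 224 CPM in dendritic-like and 2222 ± 262 CPM in microglia-like cells, against 212 ± 96.1 CPM in B-like and 159 ± 65.3 CPM in T-like cells. NK-like cells, whose activating receptors use the same adaptor, held 1891 ± 290 CPM. The erythroid-like, endothelial-like and choroid/ependymal-like classes also carried Trem2 (546, 370 and 380 CPM on average). In the same order they held Mertk (129, 82.8 and 72.1 CPM), Pros1 (56.7, 88.4 and 51.4 CPM) and Stab1 (97.4, 124 and 68.5 CPM). The part of RNA from other cells in these small classes was not tested.

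**Figure D1:**
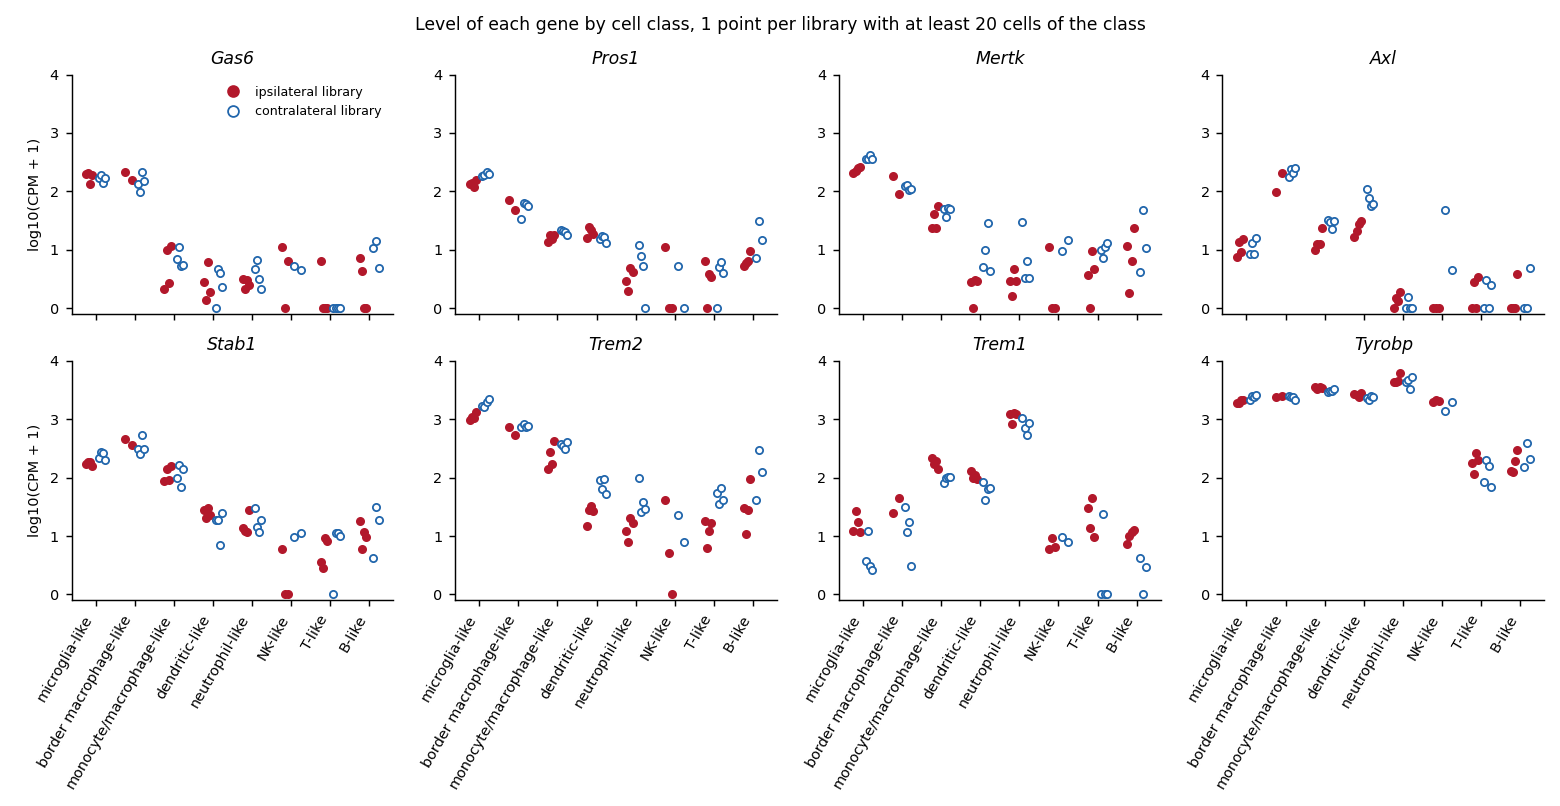
Level of each of the 8 genes by cell class, as log10(CPM + 1) of counts summed per library (vertical axis), with 1 point per library holding at least 20 cells of the class; filled red points are ipsilateral and open blue points contralateral libraries. Trem2 and Mertk are highest in microglia-like cells, Axl and Stab1 in border macrophage-like cells and Trem1 in neutrophil-like cells, while Tyrobp is high in every myeloid class and in NK-like cells.

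Microglia-like cells of the ipsilateral hemisphere held less Trem2, Mertk, Pros1 and Stab1 and higher Trem1 counts than those of the contralateral hemisphere. By edgeR, adjusted over 13336 genes, 4 of the 8 genes were called lower and 1 higher at an adjusted p under 0.05. Of all genes tested in this class, 46.0% were called (24.0% higher and 22.1% lower), so being called does not set these 5 genes apart. Scaling by library totals alone gave 2336 genes higher and 3569 lower in place of 3194 and 2943, with the same direction for each of the 5.

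Gas6, the ligand that activates all TAM receptors, stood at 207, 192, 198 and 133 CPM in the ipsilateral libraries (Prdx1-/- at 48 h, WT at 48 h, Prdx1-/- at 24 h and WT at 24 h), against 186, 170.2, 165 and 136 CPM in the contralateral libraries in the same order. It was higher on the ipsilateral side in 3 of 4 matched pairs, with overlapping groups, and missed the threshold (log2 fold change 0.23, SE 0.10, edgeR adjusted p = 0.0866). Without the ipsilateral 24 h library labelled WT it passed (0.30, adjusted p = 0.0345), as it did with cells classed by marker score (0.36, adjusted p = 0.0094). Pros1, the other ligand, stood at 139.9, 155, 134 and 116 CPM in ipsilateral libraries, against 187, 194, 182 and 211 CPM in contralateral libraries. The groups did not overlap, and the level was 1.34-fold lower ipsilaterally (log2 fold change -0.42, SE 0.10, edgeR adjusted p = 0.0064).

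Mertk, the main TAM receptor of microglia, had 224, 263, 208 and 248 CPM in ipsilateral libraries, against 354, 354, 351 and 411 CPM in contralateral libraries. Every ipsilateral library lay below every contralateral one, and Mertk fell 1.47-fold (log2 fold change -0.55, SE 0.08, edgeR adjusted p = 0.00055). With each cell thinned to 2000 UMIs, 34.4% to 44.6% of ipsilateral and 50.5% to 56.1% of contralateral microglia-like cells had a Mertk UMI, where 0% to 3.70% of T-like cells had one. Without thinning the shares were 81.5% to 87.1% and 90.6% to 92.0%, at medians of 11084 to 12176 UMIs in ipsilateral and 7057 to 7798 UMIs in contralateral libraries. Stab1 had 184, 155, 169.6 and 185 CPM in ipsilateral libraries, against 279, 198, 216 and 265 CPM in contralateral libraries. Its groups did not overlap either (log2 fold change -0.37, SE 0.10, edgeR adjusted p = 0.0144). For Axl the means were 10.3 ± 3.65 CPM ipsilaterally and 10.5 ± 3.59 CPM contralaterally (SD, n = 4 each; log2 fold change 0.05, SE 0.11, edgeR adjusted p = 0.736). With libraries labelled WT alone, a setting added after the data were seen, Mertk (-0.50, adjusted p = 0.0863), Pros1 (-0.52, adjusted p = 0.0883) and Stab1 (-0.36, adjusted p = 0.147) missed the threshold in edgeR.

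Trem2 had 1076, 1334, 976 and 1060.4 CPM in ipsilateral libraries, against 1612, 2189, 1674 and 1969 CPM in contralateral libraries. The lowest contralateral library lay above the highest ipsilateral one, and Trem2 was 1.57-fold lower in ipsilateral cells (log2 fold change -0.66, SE 0.10, edgeR adjusted p = 0.00089). It was called under 20 of 20 alternative settings, with adjusted p of at most 0.0458. Unthinned, 96.8% to 99.5% of ipsilateral and 98.2% to 99.97% of contralateral cells had a Trem2 UMI. In the thinned data it was found in 77.5%, 89.0%, 81.3% and 81.1% of ipsilateral cells, against 88.4%, 97.2%, 93.8% and 95.3% of contralateral cells and at most 11.1% of T-like cells. The exact 95% binomial intervals of the ipsilateral 48 h shares, which cover counting error only, were 73.7% to 81.0% in the library labelled Prdx1-/- and 86.2% to 91.4% in that labelled WT. The 12 markers that name the class were also lower, with sums of 9827 to 12120.4 CPM in ipsilateral libraries, against 16492 to 25030.2 CPM in contralateral ones, and their part in these differences was not tested.

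Trem1 was scarce in microglia-like cells, with 25.6, 10.9, 11.1 and 16.7 CPM in ipsilateral libraries, against 11.1, 1.63, 2.72 and 2.12 CPM in contralateral libraries. The contralateral 48 h library labelled Prdx1-/- reached the ipsilateral range, and all 4 matched pairs were higher ipsilaterally (log2 fold change 2.24, SE 0.59, edgeR adjusted p = 0.0327). The call was lost without any 1 of 6 libraries (adjusted p between 0.0525 and 0.142), all but the ipsilateral 24 h library labelled WT and the contralateral 48 h library labelled Prdx1-/-. Thinned shares of cells with a Trem1 UMI were 1.67% to 3.38% on the ipsilateral and 0.13% to 2.06% on the contralateral side. They lay within the range of T-like cells (0% to 3.70%), and Trem1 is not read as expression here. The medians over libraries were 1.86% in microglia-like and 1.15% in T-like cells. T-like libraries held only 33 to 125 cells, so the top of their range rests on few cells. T-like cells held neutrophil markers too, at 968 to 7680 CPM ipsilaterally and 26.8 to 10655 CPM contralaterally. They are no clean floor for Trem1, so the comparison cannot decide whether microglia-like cells express it. T-like medians were 5550 to 6140 UMIs. The 12 neutrophil markers summed to 215 to 1006 CPM in ipsilateral and 27.6 to 242 CPM in contralateral microglia-like cells, and at least 11 of 12 were above 0. The 12 monocyte/macrophage markers summed to 202 to 544 CPM and 51.0 to 204 CPM, and the part of these cells' RNA in the Trem1 difference was not tested. Trem1 counts per S100a8 count were 6.96 to 50.9 times those of neutrophil-like cells of the same library, against 0 to 3.77 times in T-like cells.

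Tyrobp had 1899, 2147, 1907 and 2119.9 CPM in ipsilateral libraries, against 2498, 2587, 2175 and 2446 CPM in contralateral libraries. The groups did not overlap, yet the fitted difference missed the threshold (log2 fold change -0.18, SE 0.09, edgeR adjusted p = 0.115). It passed with the 48 h libraries alone or with library totals as the scaling (adjusted p down to 0.0129).

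**Figure D2:**
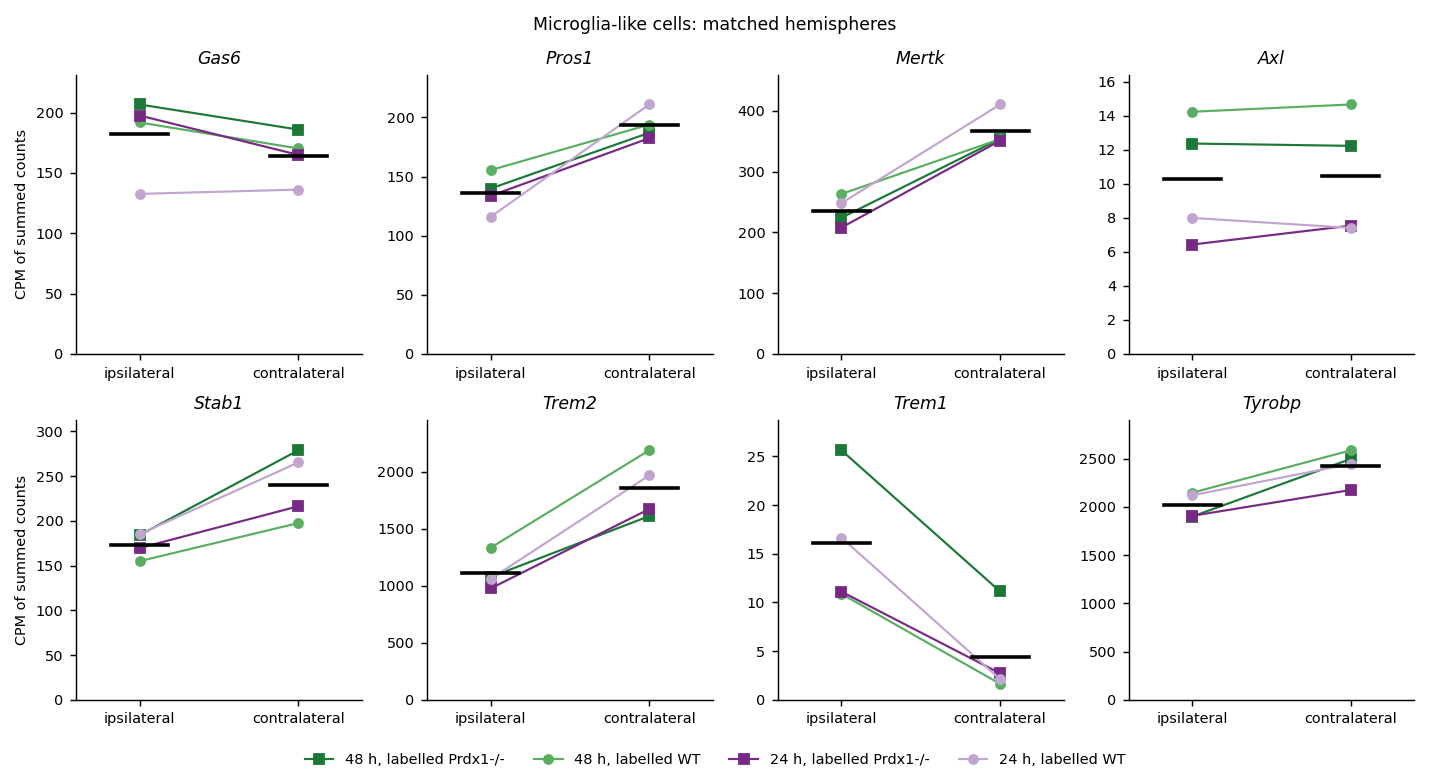
CPM of each gene in summed microglia-like cells (vertical axis) in ipsilateral and contralateral hemispheres; lines join libraries of the same labelled genotype and time, colours and symbols give these, and black bars are means of 4 libraries. All 4 lines run lower on the ipsilateral side for Pros1, Mertk, Stab1, Trem2 and Tyrobp and higher for Trem1, and the Axl lines separate by time.

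The microglia-like class was made of 11 clusters, whose levels are given as a description. A cluster with Mmp12, Lpl and Spp1 among its leading genes made up 26.17% of ipsilateral and 0.41% of contralateral microglia-like cells. It held 796 CPM of Trem2, 171 CPM of Mertk, 73.3 CPM of Pros1 and 59.2 CPM of Gas6. A cluster led by the cytokine genes Tnf and Ccl12 made up 20.77% of ipsilateral and 3.06% of contralateral cells, and held 781 CPM of Trem2 and 197 CPM of Mertk. The 2 clusters led by P2ry12, a receptor of homeostatic microglia, were the reverse case. Their shares were 4.83% and 1.01% of ipsilateral cells, against 25.68% and 15.2% of contralateral cells, and they held 2331 and 2352 CPM of Trem2 and 397 and 522 CPM of Mertk. Within 25 comparisons of the same cluster in matched libraries, Trem2 and Stab1 were lower ipsilaterally in 21 each and Mertk in 18. Tyrobp was lower in 17, Axl in 16 and Pros1 in 12, and Gas6 was higher in 17. Trem1 was higher in 21 of the 23 in which it differed. These comparisons reuse the same 4 pairs of libraries over clusters, so they are not independent replicates. In the Tnf and Ccl12 cluster Mertk was higher ipsilaterally in 3 of 3 pairs. In the larger P2ry12 cluster Trem2 stood at 2327 CPM ipsilaterally and 2331 CPM contralaterally. With the Mmp12 cluster left out, Gas6 passed in the class as a whole (log2 fold change 0.50, edgeR adjusted p = 0.00295). That setting was added after the data were seen.

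Other clusters stood apart in single genes. An interferon-response cluster led by Ifit2 and Ifit3 held 57.8 CPM of Axl, the highest among the microglia-like clusters. A small cluster led by Spp1 and Ccl12 (221 cells) held 49.1 CPM of Mertk, the lowest of them, beside 1545 CPM of Trem2. A cluster with 1012 cells, 966 of them contralateral, held 991 CPM of Trem2 and 22.8 CPM of Trem1.

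**Figure D3:**
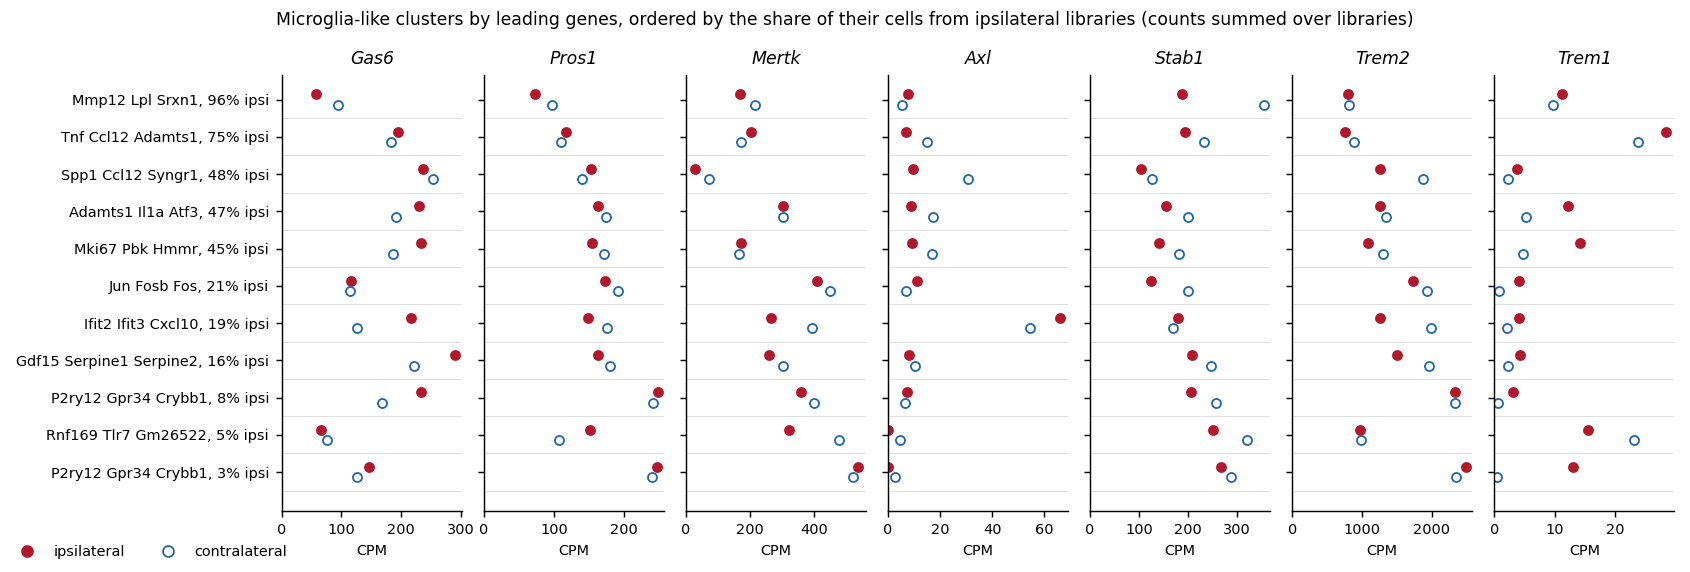
CPM (horizontal axes) of 7 genes in each of the 11 microglia-like clusters, named by leading genes and ordered from the highest to the lowest share of ipsilateral cells; filled red points are ipsilateral and open blue points contralateral cells, with counts summed over libraries and therefore no error. Trem2 is at 796 and 781 CPM in the 2 mostly ipsilateral clusters at the top and at 2331 and 2352 CPM in the 2 mostly contralateral clusters led by P2ry12.

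Monocyte/macrophage-like cells, 5712 ipsilateral and 884 contralateral, differed in Trem1 and Axl. Trem1 was called higher and Axl lower, 2 of 8 genes, where 3.61% of 10510 genes were called in this class (2.22% higher and 1.39% lower). Trem1 had 169, 139, 220.2 and 191 CPM in ipsilateral libraries (Prdx1-/- at 48 h, WT at 48 h, Prdx1-/- at 24 h and WT at 24 h), against 98.5, 102, 80.7 and 100.01 CPM in contralateral libraries in the same order. The groups did not overlap, and the level was 1.91-fold higher ipsilaterally (log2 fold change 0.93, SE 0.17, edgeR adjusted p = 0.0190). The call was lost without any 1 of 4 libraries: the contralateral and ipsilateral 24 h libraries labelled WT, or the contralateral and ipsilateral 48 h libraries labelled Prdx1-/- (adjusted p = 0.0567 to 0.0905). The thinned share of cells with a Trem1 UMI was 28.8%, 23.2%, 33.4% and 29.0% in ipsilateral libraries, against 18.4%, 15.1%, 12.4% and 16% in contralateral libraries, and 3.70% at most in T-like cells. Unthinned shares were 72.8% to 84.8% and 50% to 65.1%, at medians of 13794 to 16743 UMIs. Neutrophil markers summed to 531 to 3691 CPM (median 2845) in ipsilateral and 1232 to 7955 CPM (median 1624) in contralateral cells of the class, and their part in the Trem1 difference was not tested.

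Axl had 11.3, 22.7, 8.82 and 11.3 CPM in ipsilateral monocyte/macrophage-like cells, against 28.7, 30.3, 31.0 and 21.4 CPM in contralateral ones. It was lower in 4 of 4 pairs, with 1 ipsilateral library inside the contralateral range (log2 fold change -1.07, SE 0.22, edgeR adjusted p = 0.0387). The call was lost without any 1 of 6 libraries, all but the ipsilateral 48 h library labelled WT and the contralateral 24 h library labelled Prdx1-/- (adjusted p = 0.0516 to 0.128), and with cells classed by marker score (log2 fold change -1.06, adjusted p = 0.185). Trem2 had 278, 427, 138 and 169 CPM in ipsilateral libraries, against 348, 412, 380.5 and 303 CPM in contralateral libraries. The 2 ipsilateral 24 h libraries were the lowest and the ipsilateral 48 h library labelled WT was the highest, and the difference missed the threshold (log2 fold change -0.60, SE 0.22, edgeR adjusted p = 0.187). Tyrobp averaged 3480.1 ± 122 CPM ipsilaterally and 3112 ± 149 CPM contralaterally (SD, n = 4 each), higher in 4 of 4 pairs without overlap, at an edgeR adjusted p of 0.275. Mertk, Pros1, Stab1 and Gas6 had log2 fold changes of -0.38, -0.27, 0.06 and -0.15 and did not pass.

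The clusters of this class divided the same genes. The largest, led by Vcan, Saa3 and Chil3 as in classical monocytes, held 198 CPM of Trem1, 170.5 CPM of Trem2, 14.9 CPM of Mertk and 79.2 CPM of Stab1. The next, led by Arg1, Pf4 and Ccl24, the first an enzyme of alternatively activated macrophages, held 134 CPM of Trem1, 428 CPM of Trem2, 61.6 CPM of Mertk and 177 CPM of Stab1. An interferon-response cluster led by Ms4a4c and Rsad2 held 70.4 CPM of Axl, against 8.94 to 22.7 CPM in the other 3. Within 10 comparisons of the same cluster in matched libraries, Trem1 and Tyrobp were higher ipsilaterally in 10 each. Axl and Trem2 were lower in 9 each. These comparisons reuse the same 4 pairs of libraries over clusters, so they are not independent replicates. In 6 libraries with enough cells, a Trem2 UMI was found after thinning in 20.1% to 40.8% of cells with a Trem1 UMI and in 21.5% to 49.8% of those without one, against at most 11.1% of T-like cells. The share was the lower of the pair in cells with a Trem1 UMI in 6 of 6 libraries, which was not tested.

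**Figure D4:**
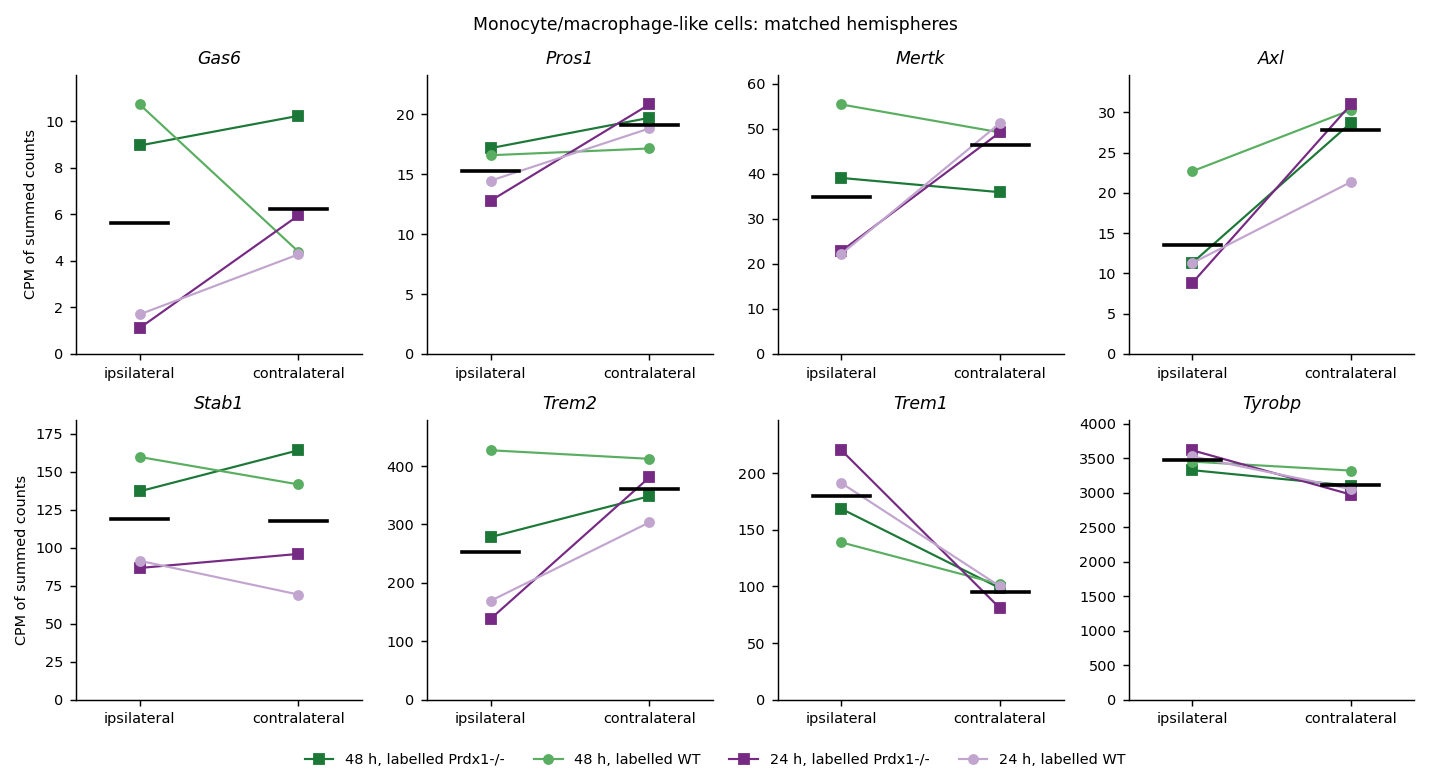
CPM of each gene in summed monocyte/macrophage-like cells (vertical axis) in ipsilateral and contralateral hemispheres, drawn as in the plot of microglia-like cells, with black bars at the means of 4 libraries. Trem1 runs higher and Axl lower on the ipsilateral side in all 4 pairs, while Mertk, Trem2 and Gas6 are low in the 2 ipsilateral 24 h libraries.

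Dendritic-like cells, which present antigen to T cells, differed in counts of Axl, Trem2 and Trem1. These 3 of the 7 genes tested were called, where 1.73% of 8799 genes were called (0.886% higher and 0.841% lower). The Trem2 counts of this class are treated as background below and not read as expression, so that call is no result about these cells. Axl had 19.7, 30.6, 15.5 and 26.8 CPM in ipsilateral libraries, against 74.3, 58.5, 107.7 and 55.1 CPM in contralateral libraries. The groups were apart, and Axl was 3.20-fold lower ipsilaterally (log2 fold change -1.68, SE 0.27, edgeR adjusted p = 0.0109). Trem1 had 97.5, 93.5, 127 and 109 CPM ipsilaterally, against 40.0, 65.1, 83.8 and 64.2 CPM contralaterally (log2 fold change 0.75, SE 0.16, edgeR adjusted p = 0.0147). Neither its groups nor those of Trem2 overlapped. Trem2 had 27.2, 25.6, 14.1 and 32.0 CPM ipsilaterally, against 62.6, 50.5, 89.8 and 94.8 CPM contralaterally (log2 fold change -1.56, SE 0.26, edgeR adjusted p = 0.0124). Without the contralateral 48 h library labelled Prdx1-/- all 3 calls were lost (adjusted p = 0.0874 for Axl, 0.104 for Trem2 and 0.125 for Trem1), and the contralateral 24 h libraries held 31 (Prdx1-/-) and 22 (WT) cells. Without the contralateral 24 h library labelled WT, Trem2 (0.0577) and Trem1 (0.056) were lost, and Trem1 also without any 1 of 3 ipsilateral libraries (0.0601 to 0.0931). In these cells the 12 microglia markers summed to 276 to 402 CPM ipsilaterally and 451 to 954 CPM contralaterally, and the 12 neutrophil markers to 601 to 1035 CPM ipsilaterally and 196 to 396 CPM contralaterally. The 12 monocyte/macrophage markers summed to 3084 to 4070.4 CPM (median 3744) ipsilaterally and 3091 to 3464 CPM (median 3209) contralaterally. The markers that name the class were at 918 to 1323 CPM (median 1034) ipsilaterally and 1148 to 1961 CPM (median 1560) contralaterally. When classed by marker score, 133 of its 1317 cells were dendritic and 327 monocyte/macrophage, and 774 were unassigned. The part of these markers and cells in the Axl, Trem2 and Trem1 differences was not tested.

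Neutrophil-like cells, 5198 ipsilateral and 604 contralateral, were the main carriers of Trem1. It had 826, 1254, 1252 and 1257 CPM in ipsilateral libraries, against 719, 880.5, 1043 and 545 CPM in contralateral libraries. All 4 pairs were higher ipsilaterally, the groups overlapped, and the test was not passed (log2 fold change 0.62, SE 0.22, edgeR adjusted p = 0.162). By the thinned data 76.1% to 85.9% of ipsilateral and 70.3% to 77.3% of contralateral cells had a Trem1 UMI (unthinned 92.3% to 98.1% and 90.7% to 97.8%, at medians of 3480 to 5826 and 4146 to 7227 UMIs), where T-like cells reached 3.70%. Among the 4 clusters, that led by Ltf, Ngp and Camp, granule genes of immature neutrophils, held 282 CPM of Trem1 and 2490 CPM of Tyrobp. The other 3 held 1158 to 1299 CPM of Trem1 and 4498 to 5902 CPM of Tyrobp. Trem2 was the 1 gene of 7 tested that was called lower ipsilaterally in this class (log2 fold change -1.56, SE 0.30, edgeR adjusted p = 0.0150), where 2.72% of 8491 genes were called (0.459% lower). Its level was 6.78 to 19.5 CPM ipsilaterally and 24.6 to 98.2 CPM contralaterally, and with cells classed by marker score it lost the call (log2 fold change -0.63, adjusted p = 0.461). The call was also lost without any 1 of 3 libraries, the ipsilateral 24 h libraries and the contralateral 48 h library labelled Prdx1-/- (adjusted p = 0.0554 to 0.0982). These Trem2 counts are likewise treated as background below.

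In T-like cells Trem2 had 5.36, 15.8, 17.3 and 11.1 CPM ipsilaterally against 35.0, 40.0, 53.6 and 66.9 CPM contralaterally (log2 fold change -1.84, SE 0.34, edgeR adjusted p = 0.0013). With cells classed by marker score it missed the threshold (adjusted p = 0.0567). It was the 1 gene called of the 3 tested, where 2.12% of 6466 genes were called (0.851% lower). Microglia markers summed to 69.7 to 192 CPM ipsilaterally and 286 to 545 CPM contralaterally in T-like cells, and to 231 to 413 CPM and 401 to 1083 CPM in neutrophil-like cells. Thinned shares with a Trem2 UMI were 0% to 11.1% in T-like, 1.18% to 8.11% in neutrophil-like and 1.80% to 9.68% in dendritic-like cells, against 21.3% to 47.3% in monocyte/macrophage-like cells. The medians were 3.56%, 4.21%, 7.03% and 36.8% in that order, and T-like libraries held only 33 to 125 cells. T cells and neutrophils should lack Trem2, and the dendritic-like share lies within the T-like range, so the Trem2 values of these 3 classes are treated as background and not read as expression.

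**Figure D5:**
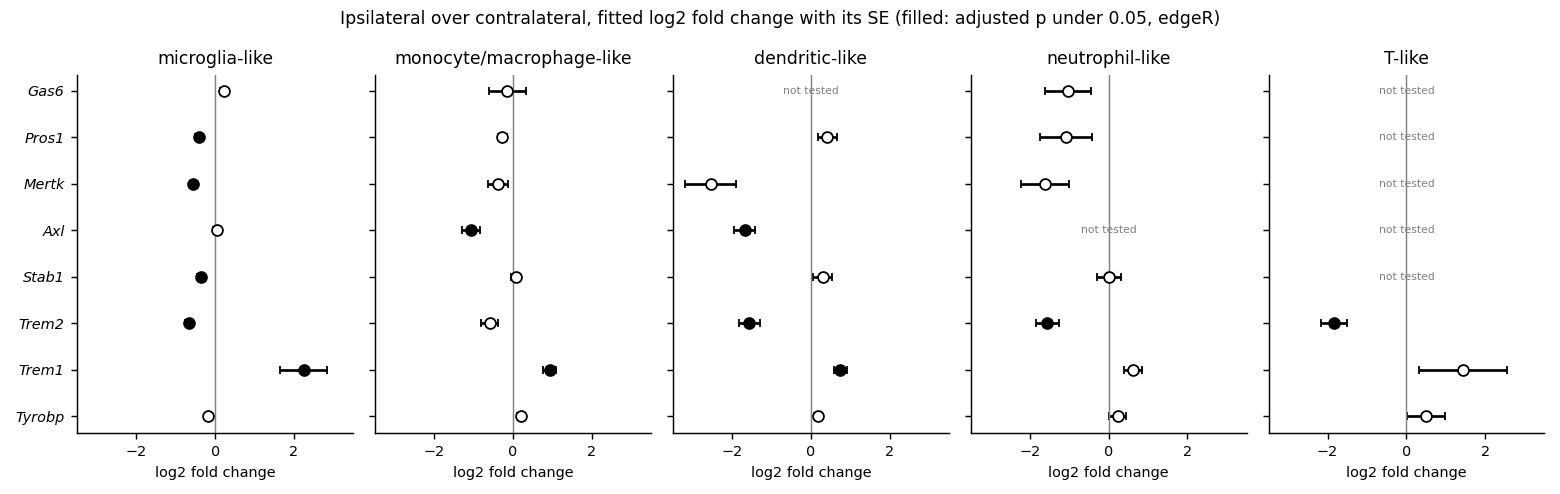
Fitted log2 fold change of ipsilateral over contralateral libraries (horizontal axis) with its SE (bars) for each gene in the 5 classes tested; filled points have an edgeR adjusted p under 0.05. Trem1 lies to the right of 0 in all 5 panels and Trem2 to the left in all 5, but the classes come from the same libraries. Trem2 in dendritic-like, neutrophil-like and T-like cells and Trem1 in microglia-like cells are not read as expression. The Axl points are to the left in monocyte/macrophage-like and dendritic-like cells but at 0 in microglia-like cells.

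Border macrophage-like cells were too few for a test, since the ipsilateral 48 h libraries held 11 (Prdx1-/-) and 8 (WT) of them. At 24 h their Axl level was 97.7 CPM (Prdx1-/-) and 201 CPM (WT) ipsilaterally, against 178 and 202 CPM contralaterally. Trem2 stood at 734 and 534 CPM ipsilaterally, against 731 and 738 CPM contralaterally. Axl was thus lower ipsilaterally under the label Prdx1-/- and nearly equal under WT. Trem2 was nearly equal under Prdx1-/- and lower ipsilaterally under WT.

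Between times, Axl was the member that changed in microglia-like cells. It had 12.4 (Prdx1-/-) and 14.2 CPM (WT) in ipsilateral and 12.2 and 14.7 CPM in contralateral libraries at 48 h, against 6.43, 8.00, 7.54 and 7.41 CPM at 24 h in the same order. The 48 h libraries all lay above the 24 h libraries, in both hemispheres and under both labels, and Axl was 1.76-fold higher at 48 h (log2 fold change 0.81, SE 0.11, edgeR adjusted p = 0.0010). It passed under 19 of 19 alternative settings. The other 7 genes were not called, where 12% of genes were called between times in this class (6.87% higher).

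Stab1 was the member called between times in monocyte/macrophage-like cells, where 5.23% of genes were called (3.16% higher). It had 137, 160, 164 and 142 CPM at 48 h (ipsilateral Prdx1-/-, ipsilateral WT, contralateral Prdx1-/- and contralateral WT), against 86.7, 91.4, 96.0 and 69.2 CPM at 24 h. The times did not overlap, and Stab1 was 1.67-fold higher at 48 h (log2 fold change 0.74, SE 0.12, edgeR adjusted p = 0.0088). With cells classed by marker score it missed the threshold (log2 fold change 0.66, adjusted p = 0.0767). Gas6 averaged 8.57 ± 2.88 CPM at 48 h and 3.26 ± 2.26 CPM at 24 h (SD, n = 4 each). It was higher in 4 of 4 pairs and not called (log2 fold change 2.04, SE 0.50, edgeR adjusted p = 0.0615), though it passed with matched libraries as a block (0.0349). In neutrophil-like, dendritic-like and T-like cells edgeR called 0 of 7, 0 of 7 and 0 of 3 members between times, with 2, 1 and 0 at an unadjusted p under 0.05. DESeq2 called 2, 0 and 0, and 1.35%, 1.45% and 0.108% of all genes were called by edgeR.

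The ipsilateral monocyte/macrophage-like cells at 24 h stood low in several clearance genes. In ipsilateral libraries Mertk had 39.1 (Prdx1-/-) and 55.4 CPM (WT) at 48 h and 22.9 and 22.2 CPM at 24 h, while in contralateral libraries it had 35.9 and 49.2 CPM at 48 h and 49.3 and 51.3 CPM at 24 h. The hemisphere difference of Mertk changed between times by 1.16 on the log2 scale (SE 0.26, unadjusted p = 0.0012), which did not pass over all genes (edgeR adjusted p = 0.115). Gas6 (2.26, adjusted p = 0.234), Trem2 (0.92, adjusted p = 0.258) and Trem1 (-0.74, adjusted p = 0.220) also missed the threshold in the same edgeR test. Over the 5 classes and both interactions, hemisphere by time and hemisphere by genotype label, 0 of 66 tests of these genes passed and 11 had an unadjusted p under 0.05, and DESeq2 called 0 as well. For the interaction with time, 0.0525% of all genes were called in microglia-like, 0.257% in monocyte/macrophage-like, 0.0% in neutrophil-like, 0.0341% in dendritic-like and 0.0773% in T-like cells. For that with genotype label the shares were 0.0% in the first 3 classes, 0.114% in dendritic-like and 0.0309% in T-like cells. Without a filter on low genes the 4 members named here passed the interaction with time (adjusted p of at most 0.0189).

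Between labelled genotypes none of the 8 genes was called by edgeR in any of the 5 classes, and DESeq2 called 0 too. Of all genes, 0.075% were called in microglia-like cells, 0.00951% in monocyte/macrophage-like cells, 0.0% in neutrophil-like cells, 0.0114% in dendritic-like cells and 0.108% in T-like cells. In microglia-like cells 2 members had an unadjusted p under 0.05, and in the other 4 classes 0. Gas6 averaged 189 ± 18 CPM in libraries labelled Prdx1-/- and 158 ± 28.3 CPM in those labelled WT (SD, n = 4 each), higher in 4 of 4 pairs (log2 fold change 0.29, SE 0.10, edgeR adjusted p = 0.337). Trem2 averaged 1334 ± 359 CPM in libraries labelled Prdx1-/- and 1638 ± 529 CPM in those labelled WT, lower in 4 of 4 pairs (log2 fold change -0.26, SE 0.10, edgeR adjusted p = 0.380).

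The 48 h libraries, whose Prdx1 counts match their labels, were also fitted alone, with 4 libraries and 1 residual degree of freedom. Trem2 in microglia-like cells was then lower, at 1076 CPM ipsilaterally and 1612 CPM contralaterally under the label Prdx1-/-, against 1334 and 2189 CPM under WT (log2 fold change -0.43, SE 0.10, edgeR adjusted p = 0.0099). In this fit 5.88% of 12404 genes were called (3.15% lower). The cluster that held 991 CPM of Trem2 made up 869 of 2973 contralateral microglia-like cells under Prdx1-/- at this time, against 5 of 3045 under WT, and its part in this difference was not tested. In monocyte/macrophage-like cells Trem2 stood at 278 and 348 CPM under Prdx1-/-, against 427 and 412 CPM under WT (log2 fold change -0.51, SE 0.09, edgeR adjusted p = 0.0198), and Mertk at 39.1 and 35.9 CPM under Prdx1-/-, against 55.4 and 49.2 CPM under WT (-0.56, SE 0.09, adjusted p = 0.0118). Here 2.03% of 11177 genes were called (1.11% lower). With 1 library per hemisphere and label at this time, genotype and library cannot be told apart.

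Other genes of these pathways were counted from lists, which are described by counts alone. In microglia-like cells 46.0% of all genes were called between hemispheres (24.0% higher and 22.1% lower), and a list whose share is near these is no result about the list. Of 23 further phosphatidylserine receptors and bridges, 16 were tested in microglia-like cells, and 3 rose, 9 fell and 4 did not pass in ipsilateral libraries, with a median log2 fold change of -0.28 beside 0.01 over all genes. Those that fell included Havcr2 (TIM-3, -0.71, SE 0.08), Cd300a, an inhibitory receptor for phosphatidylserine (-0.81, SE 0.09), and the integrin subunit Itgb3 (-0.77, SE 0.12), while the scavenger receptor Cd36 rose (2.67, SE 0.29). Of 19 genes tested for engulfment machinery and its brakes, 3 rose, 4 fell and 12 did not pass. Those that fell included Elmo1, which activates Rac during engulfment (-0.75, SE 0.08), and Sirpa, the receptor for the don't-eat-me signal CD47 (-0.52, SE 0.08). Vav3 of the same list rose (2.91, SE 0.40). Of 20 genes of cargo handling, 6 rose, 4 fell and 10 did not pass: the glucose transporter Slc2a1 rose (0.88, SE 0.13), as did the lysosomal lipase Lipa (0.36, SE 0.08), and the cholesterol exporter Abcg1 fell (-0.42, SE 0.10). All named genes had an edgeR adjusted p of at most 0.0069.

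Among other TREM family and DAP12 partner receptors, 7 of 15 rose, 3 fell and 5 did not pass in microglia-like cells, where 24.0% of all genes rose and 22.1% fell. The list's median log2 fold change was 0.45, beside 0.01 over all genes. Cd300lb rose (1.78, SE 0.19), and Siglech (-1.39, SE 0.10), Cd300c2 (-0.79, SE 0.09) and Hcst, which encodes the adaptor DAP10 (-0.74, SE 0.12), fell. Siglech was also among the markers that name the class. Of 22 genes of TREM and DAP12 signalling and ligands, 4 rose, 4 fell and 14 did not pass. Inpp5d (SHIP1), a phosphatase that restrains this signalling, fell (-0.69, SE 0.10), as did the TREM2 ligand gene Apoe (-0.52, SE 0.13), while Ms4a6d rose (1.11, SE 0.16). Of 9 sheddases of MERTK, AXL and TREM2 and their regulators, 4 rose, 1 fell and 4 did not pass: the inhibitor Timp1 rose most (3.93, SE 0.44), with Rhbdf2, a regulator of ADAM17 (0.98, SE 0.14), and Adam10, a sheddase of TREM2, fell (-0.34, SE 0.08). The edgeR adjusted p of each was at most 0.0098.

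In monocyte/macrophage-like cells, where 3.61% of 10510 genes were called between hemispheres (2.22% higher and 1.39% lower), the same lists gave the following counts. They were 1 higher and 0 lower of 15 phosphatidylserine receptors and bridges, 0 of 17 for engulfment machinery, 2 higher and 1 lower of 20 for cargo handling, 0 higher and 1 lower of 15 partner receptors, 0 of 22 for signalling and 0 of 7 sheddases. The 3 lists without a call by edgeR had 7, 6 and 2 genes at an unadjusted p under 0.05. The genes called were Cd14 (0.64, SE 0.14, edgeR adjusted p = 0.0410), Odc1 (0.88, SE 0.13, adjusted p = 0.0091), the cholesterol exporters Abca1 (0.62, SE 0.13, adjusted p = 0.0345) and Abcg1 (-0.65, SE 0.12, adjusted p = 0.0159), and Siglech (-3.18, SE 0.41, adjusted p = 0.0059). Siglech is a microglia marker, and the 12 microglia markers summed to 229 to 462 CPM in ipsilateral and 572 to 950 CPM in contralateral cells of this class. Their part in its change was not tested.

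The genes with the most similar pattern over 70 class-by-library sums followed the same division of cell types, given as Pearson's r of log2(CPM + 1) across sums that share libraries. Trem2 was closest to the complement genes C1qc (0.97), C1qb (0.97) and C1qa (0.96), and Mertk to Trem2 (0.94), C1qa (0.94) and C1qc (0.93). Pros1 followed Lgmn (0.93), Abhd12 (0.91) and Csf1r (0.91), and Stab1 followed Ctsb (0.93), Cltc (0.91) and Lgmn (0.90). Trem1 was closest to Mcemp1 (0.95), Il1r2 (0.93) and Clec4e (0.93), and Tyrobp to Fcer1g, another adaptor of immune receptors (0.97), Itgam (0.92) and Fes (0.91). Gas6 followed Glul (0.91), Pmp22 (0.88) and Ltc4s (0.87). Axl had the weakest match, with the mannose receptor gene Mrc1 (0.84), Ap2a2 (0.82) and Sap30 (0.82).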

How the data were processed

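Single cells of 8 libraries were measured with a 10x Genomics 3′ kit. The authors deposited raw UMI counts for each gene in each cell, not scaled. The submitters' processing notes name Cell Ranger and Seurat as tools and mm10 as the build, without versions or roles. The deposited cells hold at least 204 genes and 501 UMIs and at most 19.93% mitochondrial UMIs, so cells with less RNA are not represented.

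A minimum of 200 genes and a limit of 10% mitochondrial UMIs kept 39608 cells and left out 337, and 1583 cells scoring highest against simulated doublets were called doublets, at a rate of 0.8% per 1000 cells of a library. Clustering used no batch integration and 2000 variable genes that excluded the 8 genes and Prdx1, with 30 principal components, 15 neighbours and Leiden resolution 1.0 (leidenalg 0.10.2 and igraph 0.11.9 on a scanpy 1.11.5 graph), and doublets were removed afterwards. A cluster took the name of its best-scoring marker list, and 13 of 46 clusters, with 604 cells, stayed unnamed. Counts were summed per class and library where at least 20 cells were present. Sums were tested with edgeR 4.0.16 (quasi-likelihood, robust, TMM, filterByExpr, Benjamini-Hochberg over all genes) in R 4.3.3. Terms were hemisphere, genotype label and time, and each interaction was tested in a fit of its own. DESeq2 1.42.0, RLE scaling, library totals, no filter, cells classed by marker score, doublets kept, a 5% mitochondrial limit, matched libraries as a block, single libraries left out and subsets of libraries were the alternatives. The scripts were tested on simulated data. Fold changes are log2 values of the first-named group over the other.

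The 8 genes, the pathway lists and the marker lists were chosen with earlier results of these data known. The text names the 8 genes, up to 4 genes per pathway list with the smallest p between hemispheres in microglia-like and in monocyte/macrophage-like cells, and the 3 genes nearest to each of the 8 in pattern. Other genes named, in the closing section, were chosen after their values were seen. The labels give no replicate numbers, and the block joins libraries alike in the other 2 terms. Shares of cells with a UMI were computed after thinning each cell to 2000 UMIs, with exact Clopper-Pearson intervals. Counts of paralogous genes such as Sirpb1a, Sirpb1b and Sirpb1c may share reads. No protein sequences were used here.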

Additional observations from a re-analysis of the deposited data

Results flagged for a closer look

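In 48 groups of 4 libraries (1 gene in 1 class and hemisphere), 10 held a library far from the other 3. The rule flags about 1 in 20 groups of like libraries. Here the libraries of a group differ in genotype label or time, and they recur over genes and classes. That rate is therefore no test of the flags. In contralateral microglia-like cells Mertk stood at 410.6 CPM in the 24 h library labelled WT, with the others at 351 to 354 CPM. Trem1 in the same cells stood at 11.1 CPM in the 48 h library labelled Prdx1-/-, with the others at 1.63 to 2.72 CPM. That library also gave 869 of the 1012 cells of 1 microglia-like cluster.

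In contralateral monocyte/macrophage-like cells Mertk was 35.9 CPM in the 48 h library labelled Prdx1-/-, with the others at 49.2 to 51.3 CPM, and Trem1 was 80.7 CPM in the 24 h library labelled Prdx1-/-, with the others at 98.5 to 102 CPM. In ipsilateral neutrophil-like cells Trem1 was 826 CPM in the 48 h library labelled Prdx1-/-, with the others at 1252 to 1257 CPM. In the ipsilateral 48 h library labelled WT the same class held 6232 CPM of Tyrobp and 26.4 CPM of Stab1, with the others at 4411 to 4485 CPM and at 10.9 to 12.6 CPM.

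In contralateral neutrophil-like cells the 24 h library labelled Prdx1-/-, which held 45 such cells, had 98.2 CPM of Trem2 and 29.1 CPM of Mertk, with the others at 24.6 to 36.7 CPM and at 2.21 to 5.40 CPM. Axl in these cells was 0.559 CPM, from 1 UMI, in the 48 h library labelled Prdx1-/- and 0 in the others.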

How the results depend on the processing

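The count of the 8 genes called is given here under each setting that moved it by over 1.5 times. The share of all genes called under each setting is not set beside these counts. They therefore do not tell a change in the 8 genes from a change in the whole fit. Of 2730 single-gene comparisons of a setting with the fit as reported, 2629 kept direction and side of the threshold, 50 lost the call, 51 gained one and 0 reversed. With libraries labelled WT alone the hemisphere calls were 2 in microglia-like cells (5 as reported), 0 in monocyte/macrophage-like (2), 0 in neutrophil-like (1), 1 in dendritic-like (3) and 0 in T-like cells (1), and time calls in monocyte/macrophage-like cells were 4 (1). With 48 h libraries alone, hemisphere calls were 1, 0 and 0 in monocyte/macrophage-like, neutrophil-like and T-like cells, and genotype calls 1 in microglia-like and 2 in monocyte/macrophage-like cells (0 each). Cells classed by marker score gave 1, 0 and 0 hemisphere calls in the same 3 classes. In that setting dendritic-like cells were too few in some libraries for a fit. Neutrophil-like hemisphere calls were 0 with library totals or without both 24 h libraries labelled Prdx1-/-, 2 without a filter on low genes and 3 with doublets kept. Time calls in monocyte/macrophage-like cells were 2 with DESeq2, doublets kept, the 5% mitochondrial limit, the block or without both 24 h libraries labelled Prdx1-/-. In neutrophil-like cells they were 2 with DESeq2 or no filter and 1 with the 5% limit or the block (0), and library totals moved the median time difference of all genes there to 0.42 on the log2 scale. No filter gave 4 hemisphere-by-time calls in monocyte/macrophage-like and 1 hemisphere-by-genotype call in dendritic-like cells (0 each), and the 5% limit left 1 dendritic-like hemisphere call. With matched libraries as a replicate block, gained calls were Gas6 between hemispheres in microglia-like cells (adjusted p = 0.0314), Gas6 between times in monocyte/macrophage-like cells (0.0349) and Trem2 between times in neutrophil-like cells (0.0291), and no other count moved by over 1.5 times. Leaving out each library in turn gave hemisphere calls of 4 to 6 in microglia-like, 0 to 3 in monocyte/macrophage-like, 0 to 2 in neutrophil-like, 0 to 4 in dendritic-like and 1 to 3 in T-like cells. Time calls ran from 1 to 3 in monocyte/macrophage-like and 0 to 2 in neutrophil-like cells, hemisphere-by-time calls from 0 to 1 in monocyte/macrophage-like and 0 to 2 in T-like cells, and hemisphere-by-genotype calls from 0 to 1 in dendritic-like and 0 to 2 in T-like cells. With doublets kept, border macrophage-like means were 96.3 CPM for Axl and 245 CPM for Stab1. The cause of these changes was not tested. Depth limits small sums: contralateral 24 h T-like sums held 223899 (Prdx1-/-) and 194380 UMIs (WT).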

Other observations

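Monocyte/macrophage-like cells differed between times in further genes of engulfment and TREM signalling, chosen here after their values were seen. Between times, 5.23% of all genes were called in this class (3.16% higher). Of 20 genes of cargo handling, 5 were higher and 0 lower at 48 h than at 24 h: the cholesterol transporters Npc1 (log2 fold change 1.03, SE 0.11, edgeR adjusted p = 0.0010) and Abcg1 (0.99, SE 0.12, adjusted p = 0.0020), the lysosomal protease Ctsd (0.80, SE 0.13, adjusted p = 0.0081), the lipase Lipa (0.62, SE 0.13, adjusted p = 0.0270) and Cd68 (0.49, SE 0.12, adjusted p = 0.0443). The list's median log2 fold change was 0.45, beside 0.00 over all genes. Cd300lf, a receptor for phosphatidylserine and ceramide, was also higher (0.72, SE 0.11, adjusted p = 0.0065), with Lrp1 (0.44, SE 0.10, adjusted p = 0.0300), while Scarb1 was lower (-0.58, SE 0.11, adjusted p = 0.0153).

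Of 15 other TREM family and DAP12 partner receptors tested there, 1 was higher and 6 lower at 48 h, beside the 5.23% of all genes called in either direction. Cd300c2 was higher (0.53, SE 0.13, edgeR adjusted p = 0.0451). Pilrb2 (-0.83, SE 0.14, adjusted p = 0.0093), Treml4 (-1.18, SE 0.26, adjusted p = 0.0458) and 3 genes of the Sirpb1 family (-0.39 to -0.68) were lower, and these families hold near-identical copies that may share reads. Siglech, a microglia marker, was lower too (-1.86, SE 0.41, adjusted p = 0.0314). Ptpn6 (SHP-1) was lower (-0.50, SE 0.09, adjusted p = 0.0147) and Inpp5d higher (0.48, SE 0.11, adjusted p = 0.0336).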
